A study of Mus musculus with 20 samples.

Results

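Paraspinal tumors were compared with neurofibromas in 16 of the 20 bulk RNA sequencing libraries of the series, 4 from paraspinal tumors and 12 from neurofibromas. Members were taken from the sample titles, which also split the paraspinal libraries into subgroup 1 (2 libraries) and subgroup 2 (2 libraries). The tumors grew in C57BL/6J mice. Both stages carried Nf1fl/fl and DhhCre, a Cre recombinase driven by Desert hedgehog sequences that removes floxed Nf1 in the Schwann cell lineage. Cells of the same tumor without Cre keep Nf1. The paraspinal mice were in addition Ink4a/Arf+/-, an allele carried by all cells of the animal. No drug was given in either stage, and ages were not stated beyond a set time or tumor size. The remaining 4 libraries, from GEM-PNST (nerve sheath tumors of mice with the paraspinal genotype), were read only where a value shared by their sequencing run bears on a result. The labels call the subgroups sub-clusters, so these may have been drawn from the same expression values, and nothing states that each library came from its own animal. The sample codes of neurofibroma libraries 8 and 9 differ only in a final letter, so these may share an animal. The same holds for subgroup 1 library 1 and a GEM-PNST library, whose codes differ only in a final letter apart from case. The codes of both subgroup 2 libraries also differ in 1 letter. Subgroup 2 library 1 had 0 counts of Xist, from the inactive X chromosome, and 277 of the Y-linked Ddx3y. Library 2 had 13828 and 0, so these libraries differ in sex and came from different animals. Each library was counted as a sample, and 9646 and 9650 genes were called between the stages without neurofibroma library 8 or 9, against 9777 with both. The p-values below therefore measure the spread between these samples, which may be technical.

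NF1 is a GTPase-activating protein that switches RAS off, and Schwann cells without it are the cells from which neurofibromas grow. The Ink4a/Arf locus (Cdkn2a) makes a pair of unrelated proteins: Ink4a blocks the cyclin D kinases and so holds RB active, and Arf shields p53 from MDM2. In human plexiform neurofibroma the locus is often lost when atypical tumors arise, and its products are also induced by persistent RAS signaling and in senescent cells. A nerve tumor is a mixture of Schwann cells, fibroblasts, collagen-rich matrix, mast cells, macrophages and vessels around axons, and a bulk library averages all of them. In such libraries a smaller number of cells of a type and less RNA per cell cannot be told apart.

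Total counts ranged from 9900759 to 17594164 in neurofibroma and from 18474071 to 24314222 in paraspinal libraries, and 16270 genes were tested. By the alignment names in the deposited sample table, neurofibroma libraries 1 to 6 came from 1 sequencing run, 7 to 12 from another, and all paraspinal libraries from the run they shared with GEM-PNST, so stage, run and Ink4a/Arf genotype cannot be told apart. The submitters' processing notes name 2 aligners without saying which libraries each was used for, so a difference in alignment between the stages cannot be told apart from them either. Higher counts in paraspinal libraries were called for 4973 genes (30.6%) and lower counts for 4804 (29.5%), while between the neurofibroma runs edgeR called 0 of 15327 (0.0%), with 2151 below an unadjusted p of 0.05, 503 by DESeq2 and 510 by limma-voom. Sizes given as "rose by" or "fell by" are log2 fold changes. They followed transcript composition: in 5 groups of genes of equal size the median log2 fold change went from -1.02 at the lowest GC content to 1.18 at the highest, and from 0.63 at the shortest exon length to -0.78 at the longest. Between the neurofibroma runs the same medians lay between 0 and 0.03. With that trend removed by an offset, 28.9% of 16046 genes were called higher and 19.2% lower, so 60.0% in place of 50.9% of calls were increases, and the median over all genes went from -0.01 to 0.10. Genes called in the same direction against each neurofibroma run alone, with each subgroup alone, and with the trend removed are referred to as stable calls. This rule was chosen after the data were seen, and 13.6% of all genes were stable increases and 12% stable decreases. The stages did not overlap in CPM, with paraspinal above, in 18.6% of genes, and with paraspinal below in 18.4%. Of 968 genes in 46 lists 901 passed the filter on low counts, and counts below are of members that passed. Each such count is to be read against the 30.6% of all genes called higher and the 29.5% called lower. With the trend removed these shares were 28.9% and 19.2%. The part of GC content and length in single results was not tested beyond the trend-removed values given beside them.

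**Figure D1:**
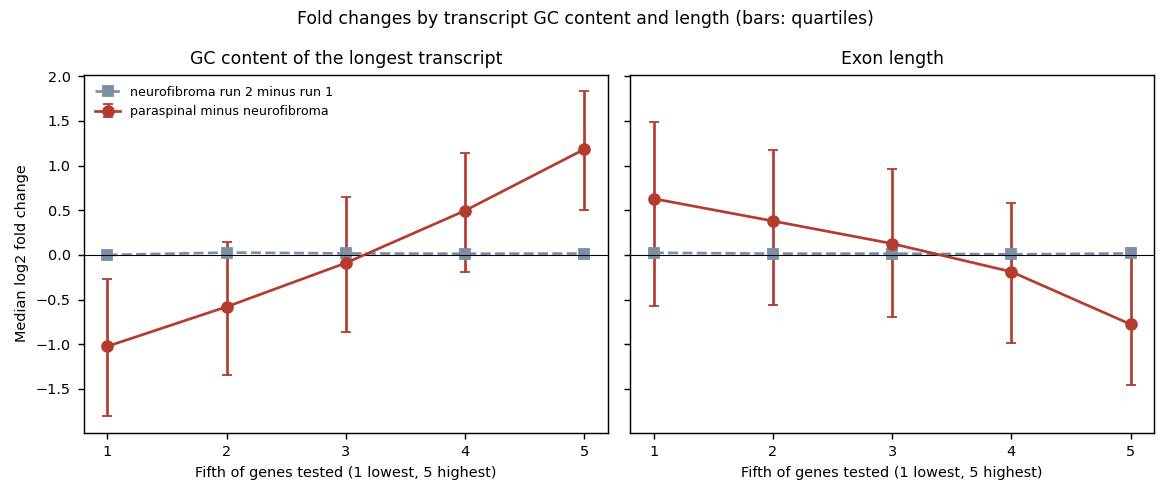
Median log2 fold change (y axis, bars from lower to upper quartile) of genes sorted into 5 groups by transcript GC content (left) or exon length (right), for paraspinal minus neurofibroma (circles) and neurofibroma run 2 minus run 1 (squares). The stage medians climb from -1.02 to 1.18 with GC content and drop from 0.63 to -0.78 with length, while the run medians stay near 0.

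The targeted genes moved in opposite directions. Nf1 fell in all paraspinal libraries and Cdkn2a, the gene of which these mice lack 1 copy, rose. Nf1 (chr11:79339693-79581612, plus strand, in GRCm38 by GENCODE M21) had 93.2 and 91.8 CPM in subgroup 1, 42.99 and 37.8 CPM in subgroup 2 and 227 to 289.6 CPM (median 265) in neurofibroma. The stages did not overlap, subgroup 2 lay lowest, and the log2 fold change was -1.97 (SE 0.22, adjusted p = 9.12e-07), or -0.64 with the length and GC trend removed. Cdkn2a (chr4:89274471-89294653, minus strand) had 15.8 and 8.27 CPM in subgroup 1, 21.2 and 38.3 CPM in subgroup 2 and 0.0903 to 1.504 CPM (median 0.386) in neurofibroma. Every paraspinal library exceeded every neurofibroma library, with a log2 fold change of 5.31 (SE 0.49, adjusted p = 8.73e-08), or 3.79 with the trend removed. Cdkn2b (chr4:89306299-89311039, minus strand), the neighboring inhibitor of the cyclin D kinases, had 29.1 and 26.3 CPM in subgroup 1, 63.3 and 80.1 CPM in subgroup 2 and 2.53 to 28.9 CPM (median 14.1) in neurofibroma. It rose by 1.71 (SE 0.49, adjusted p = 0.00606), but subgroup 1 lay at the top of the neurofibroma range and the call was lost with subgroup 1 alone (adjusted p = 0.29) and with the trend removed (0.70, adjusted p = 0.266). Counts over a whole gene include reads from outside a deleted part and from cells without Cre, so none of these values checks a deletion.

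The Cdkn2a count merges transcripts from separate starts, and the files do not say which start the paraspinal reads came from. The promoters are shown because they differ in sequence: the upstream start makes the Arf transcript and the downstream start the Ink4a transcript. Each run covers 250 bases before to 50 after the start, from the RefSeq table for GRCm38.p6, on the minus strand of chromosome 4 and 5′ to 3′. Capitals mark matches to any of the motifs searched on both strands: TGACGTCA (CRE), TGANTCA (AP-1), TTTCCCGC and TTTGGCGC (E2F), CACGTG (E box) and the CArG box. No searched motif overlapped another in these windows.
Cdkn2a, Ink4a start (chr4:89282143-89282442): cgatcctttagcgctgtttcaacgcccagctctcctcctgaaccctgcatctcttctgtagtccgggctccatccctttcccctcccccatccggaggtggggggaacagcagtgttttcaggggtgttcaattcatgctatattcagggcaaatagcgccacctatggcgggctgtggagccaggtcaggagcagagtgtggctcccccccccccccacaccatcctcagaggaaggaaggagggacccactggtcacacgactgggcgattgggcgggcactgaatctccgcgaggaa
Cdkn2a, Arf start (chr4:89294570-89294869): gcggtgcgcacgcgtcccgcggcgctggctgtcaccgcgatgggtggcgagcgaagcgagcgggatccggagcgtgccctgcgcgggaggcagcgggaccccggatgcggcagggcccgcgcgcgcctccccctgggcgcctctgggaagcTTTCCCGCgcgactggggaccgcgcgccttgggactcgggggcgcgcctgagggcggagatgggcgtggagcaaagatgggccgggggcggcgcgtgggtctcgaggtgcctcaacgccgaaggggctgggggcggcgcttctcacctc
Cdkn2b (chr4:89310983-89311282): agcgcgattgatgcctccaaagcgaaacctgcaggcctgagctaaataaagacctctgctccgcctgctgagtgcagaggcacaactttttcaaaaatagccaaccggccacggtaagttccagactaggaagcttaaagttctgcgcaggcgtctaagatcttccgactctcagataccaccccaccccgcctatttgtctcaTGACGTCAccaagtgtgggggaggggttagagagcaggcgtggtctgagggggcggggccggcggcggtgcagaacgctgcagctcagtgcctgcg
The Arf promoter held TTTCCCGC at position -99 from the start, which 1.1% of 32851 mouse promoters of this length hold. The Ink4a promoter matched no motif searched, which says only that these letters are not in this window. In the Cdkn2b promoter TGACGTCA stood at position -46, a motif present in 1.8% of promoters.

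**Figure D2:**
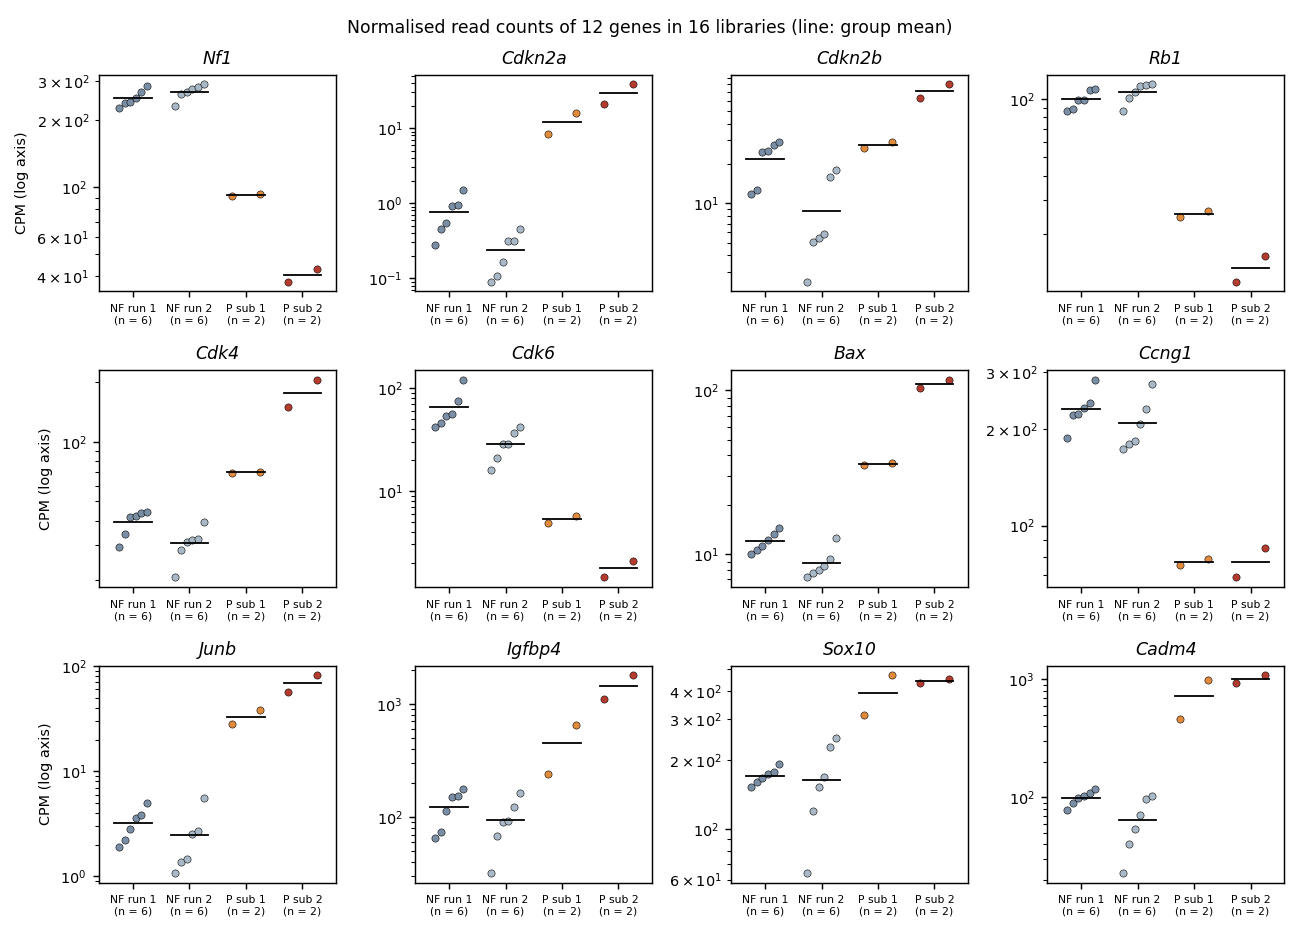
CPM on a log axis for 12 genes, each point 1 library and each line a group mean, for neurofibroma (NF) runs 1 and 2 and paraspinal (P) subgroups 1 and 2; points within a group are sorted by value. Cdkn2a, Cdk4, Bax, Junb, Igfbp4, Sox10 and Cadm4 lay higher and Nf1, Rb1, Cdk6 and Ccng1 lower in every paraspinal library than in any neurofibroma library.

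Downstream of Ink4a the kinase partners of cyclin D split. Rb1, the tumor suppressor that Ink4a protects, had 26.2 and 24.4 CPM in subgroup 1, 11.3 and 15.4 CPM in subgroup 2 and 86.7 to 119 CPM (median 105) in neurofibroma. It fell by 2.43 (SE 0.20, adjusted p = 3.31e-08), or -1.45 with the trend removed, with no overlap between stages. Its relative Rbl2 fell by 1.11 (-0.55 with the trend removed). Cdk4, a kinase that Ink4a inhibits, had 70.7 and 69.4 CPM in subgroup 1, 206 and 149.6 CPM in subgroup 2 and 20.7 to 44.4 CPM (median 33.2) in neurofibroma. It rose by 1.82 (SE 0.23, adjusted p = 3.6e-06), and subgroup 2 lay highest. Cdk6, its partner kinase, went the other way with 5.67 and 4.85 CPM in subgroup 1, 1.44 and 2.08 CPM in subgroup 2 and 15.9 to 121 CPM (median 41.9) in neurofibroma. The lowest neurofibroma library was above every paraspinal one, and the log2 fold change was -3.75 (SE 0.57, adjusted p = 2.17e-05). Among the cyclins, Ccnd3 rose by 1.99, a call lost with subgroup 1 alone (adjusted p = 0.0728), and Ccnd1 had 295 and 325 CPM in subgroup 1, 716 and 830.0 CPM in subgroup 2 and 43.2 to 870.4 CPM (median 402) in neurofibroma. That range covered both subgroups, and Ccnd1 did not pass (log2 fold change 0.54, adjusted p = 0.462). E2f1, a transcription factor that RB restrains, had 11.6 and 13.8 CPM in subgroup 1, 35.02 and 26.2 CPM in subgroup 2 and 15.1 to 27.4 CPM (median 17.6) in neurofibroma. Subgroup 1 lay below the neurofibroma range and subgroup 2 around its top, and the pooled log2 fold change of 0.16 (adjusted p = 0.587) became -1.13 (adjusted p = 0.00123) with the trend removed. The kinase Cdk2, which acts at entry into S phase, rose by 1.60 (SE 0.25).

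Of the 10 RB brakes and CDK inhibitors 5 rose and 2 fell, with a median log2 fold change of 0.66 against -0.01 over all genes tested, and -0.19 with the trend removed. Cdkn1b, which inhibits CDK2, rose by 0.88 (1.63 with the trend removed), a call lost with subgroup 2 alone (adjusted p = 0.134). Cdkn2d rose by 1.09 (0.12 with the trend removed) and lost the call with subgroup 1 alone and with the trend removed. Cdkn2c rose by 0.79 (adjusted p = 0.0458), a call lost by DESeq2, by limma-voom, with subgroup 1 alone, against neurofibroma run 2 alone, without either subgroup 2 library and without neurofibroma library 9, and turned with the trend removed (-0.50). Cdkn1a, the p53 target that arrests the cycle, had 121 and 189 CPM in subgroup 1, 236 and 275 CPM in subgroup 2 and 107 to 350.2 CPM (median 184) in neurofibroma and did not pass (0.11, adjusted p = 0.755).

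The p53 list had 7 of 26 members higher (26.9%) and 8 lower (30.8%), near the 30.6% and 29.5% over all genes, with a median of 0.29. Bax and Bbc3, which promote mitochondrial cell death, rose. Bax, which opens the mitochondrial membrane, had 34.98 and 35.95 CPM in subgroup 1, 116 and 103 CPM in subgroup 2 and 7.23 to 14.5 CPM (median 10.3) in neurofibroma, with no overlap and a log2 fold change of 2.80 (SE 0.26, adjusted p = 9.05e-08), or 0.74 with the trend removed. Bbc3, which encodes the BCL2 antagonist PUMA, had 10.5 and 10.3 CPM in subgroup 1, 8.84 and 13.1 CPM in subgroup 2 and 0.326 to 1.299 CPM (median 0.664) in neurofibroma. It rose by 3.92 (SE 0.24, adjusted p = 9.92e-10), or 1.77 with the trend removed. Ddb2, a DNA damage sensor, rose by 1.52. Other p53 targets fell: Ccng1, a cyclin-like regulator, had 78.9 and 75.4 CPM in subgroup 1, 85.3 and 69.1 CPM in subgroup 2 and 173 to 284 CPM (median 222) in neurofibroma and a log2 fold change of -1.51 (SE 0.16, adjusted p = 3.34e-07), or -0.48 with the trend removed. Zmat3, an RNA-binding protein, fell by 2.00 (-1.12 with the trend removed). Tnfrsf10b, a death receptor, fell by 2.31, and Mdm4, an inhibitor of p53, fell by 2.40 (-1.23 with the trend removed). Mdm2, the ligase that degrades p53, fell by 0.83, or -0.33 with the trend removed. Trp53 itself did not pass (0.32, adjusted p = 0.171). Phlda3, an inhibitor of AKT, rose by 2.69, a call lost with the trend removed (0.77, adjusted p = 0.109).

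The mitotic genes Cdk1 and Cdca3 were highest in subgroup 2. S phase genes rose in 10 (33.3%, near the 30.6% over all genes) and fell in 4 of 30 cases (median 0.55), and with the trend removed 15 rose and 0 fell. Fen1, a nuclease of lagging strand synthesis, had 10.1 and 11.2 CPM in subgroup 1, 17.9 and 9.42 CPM in subgroup 2 and 0.958 to 3.67 CPM (median 2.21) in neurofibroma and rose by 2.43 (SE 0.24, adjusted p = 2.26e-07), and Rfc2, a clamp loader, rose by 1.54. Fen1 and Rfc2 were the 2 stable calls of the list. Mcm2, a subunit of the replicative helicase, had 10.6 and 8.64 CPM in subgroup 1, 26.1 and 14.03 CPM in subgroup 2 and 3.58 to 10.8 CPM (median 5.72) in neurofibroma and rose by 1.28, lost with subgroup 1 alone (adjusted p = 0.113). E2F motifs were commoner in promoters of this list than in the whole table: TTTCCCGC stood in 4 of 27 and TTTGGCGC in 6 of 27, against 1.1% and 0.5% of all promoters. Among 32 genes of G2 and mitosis 11 rose (34.4%), 3 fell (9.4%) and 0 were stable increases, with a median of 0.42. With the trend removed 12 rose and 1 fell, and the median was 1.05, against 0.10 over all genes. Cdk1, the kinase that drives mitosis, had 3.13 and 2.403 CPM in subgroup 1, 48.1 and 22.7 CPM in subgroup 2 and 0 to 5.91 CPM (median 1.805) in neurofibroma. Subgroup 1 stayed within the neurofibroma range and subgroup 2 lay above it, and the increase of 3.15 (adjusted p = 0.000843) was lost with subgroup 1 alone (adjusted p = 0.736). Cdca3, a mitotic regulator, followed the same order with 3.09 and 2.08 CPM in subgroup 1, 35.8 and 11.04 CPM in subgroup 2 and 0.0903 to 3.81 CPM (median 1.401) in neurofibroma. Mki67, the usual marker of cycling cells, had 18.4 and 16.5 CPM in subgroup 1, 60.8 and 25.3 CPM in subgroup 2 and 11.5 to 184 CPM (median 47.4) in neurofibroma, and Top2a, an enzyme that untangles replicated DNA, had 12.2 and 9.75 CPM in subgroup 1, 60.98 and 31.3 CPM in subgroup 2 and 2.98 to 79.9 CPM (median 16.6) in neurofibroma. Neither passed (adjusted p = 0.135 and 0.853). Hmmr, a spindle protein, fell by 2.95 (-1.90 with the trend removed), the 1 stable decrease in the list.

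The senescence list holds mostly secreted factors of senescent cells. It also includes the receptors Plaur and Tnfrsf1b, the lamin Lmnb1 and the lysosomal enzyme Glb1. Of its 25 tested members 12 rose and 2 fell (median 1.38), and 15 rose and 1 fell with the trend removed. The list summed to 1422 to 3295 CPM in neurofibroma and to 2489.9 to 11029.9 CPM in paraspinal libraries. Igfbp4, an IGF-binding protein, had 653 and 241 CPM in subgroup 1, 1785 and 1096 CPM in subgroup 2 and 32.2 to 176 CPM (median 104) in neurofibroma. All 4 paraspinal libraries lay above the neurofibroma range, with a log2 fold change of 3.12 (SE 0.39, adjusted p = 2.68e-06). Timp1, a metalloproteinase inhibitor, had 31.98 and 17.5 CPM in subgroup 1, 1609 and 361 CPM in subgroup 2 and 2.17 to 63.96 CPM (median 28.01) in neurofibroma. Subgroup 1 lay inside the neurofibroma range, and the increase of 4.28 (SE 0.88, adjusted p = 0.000453) was lost by limma-voom and turned to -0.04 (adjusted p = 0.976) with subgroup 1 alone. Ccl8, a monocyte chemokine, rose by 3.06, lost by limma-voom, against neurofibroma run 1 alone, without subgroup 2 library 1 and with subgroup 1 alone (-0.12). Plaur, the urokinase receptor, had 3.005 and 7.26 CPM in subgroup 1, 45.4 and 20.03 CPM in subgroup 2 and 2.04 to 4.61 CPM (median 4.01) in neurofibroma and rose by 2.33, lost with subgroup 1 alone (adjusted p = 0.259). Igfbp7 rose by 2.21, lost with subgroup 1 alone, without subgroup 2 library 1 and with the trend removed (0.69). Lmnb1, a nuclear lamin whose loss marks senescence, rose by 1.91 (SE 0.38, adjusted p = 0.000368), with 12.1 and 8.87 CPM in subgroup 1, 30.6 and 13.6 CPM in subgroup 2 and 1.35 to 7.55 CPM (median 4.11) in neurofibroma. It is counted among the 12 increases, although its direction is opposite to that of senescence. Ccl2, a monocyte chemokine, did not pass (adjusted p = 0.107), though it did with the trend removed (2.02). Il6 and Gdf15 were below the filter on low counts. Like the other lists it was chosen with results of these libraries in view, so its direction is no independent evidence.

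The list of RAS GTPase-activating proteins and related regulators, among them Spred1, Spred2 and Iqgap1, had 13 members. Of these 2 rose and 4 fell, Nf1 included (30.8%, near the 29.5% over all genes), with a median of -0.64. Rasa1 fell by 1.31, or -0.29 with the trend removed, and Rasal2 fell by 2.02, or -1.06 with it removed. Rasa4 rose by 1.44. Genes that report ERK activity did not move together, with 8 of 19 higher, 2 lower and 2 stable increases. Dusp6, a phosphatase induced by ERK, had 69.8 and 61.5 CPM in subgroup 1, 92.2 and 128 CPM in subgroup 2 and 12.6 to 94.8 CPM (median 59.6) in neurofibroma and did not pass (log2 fold change 0.69, adjusted p = 0.185), nor did the inhibitor Spry4 (-0.20, adjusted p = 0.588). The ETS factor Etv4 had 35.7 and 23.5 CPM in subgroup 1, 72.04 and 98.4 CPM in subgroup 2 and 0.723 to 16.8 CPM (median 5.31) in neurofibroma, with no overlap and an increase of 3.26 (SE 0.53, adjusted p = 4.39e-05), or 1.94 with the trend removed. Its relative Etv5 had -0.54 (adjusted p = 0.0929), and passed with the trend removed (-0.78). Dusp5, a nuclear ERK phosphatase, rose by 2.48 (1.46 with the trend removed).

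Immediate early genes, which encode the AP-1 factors and other rapid responders, rose in 15 of 28 members (53.6%, against 30.6% over all genes). They fell in 2 (7.1%, against 29.5%), with a median of 1.28. With the trend removed 9 of 28 rose, near the 28.9% over all genes, and 0 fell, against 19.2%. The median was then 0.33, against 0.10 over all genes. Junb had 38.4 and 27.9 CPM in subgroup 1, 81.5 and 56.6 CPM in subgroup 2 and 1.08 to 5.59 CPM (median 2.61) in neurofibroma. No paraspinal library overlapped the neurofibroma range, and the log2 fold change was 4.16 (SE 0.34, adjusted p = 2.35e-08), or 2.27 with the trend removed. Jun rose by 1.33, or 0.49 with the trend removed, and Fos rose by 1.63 (adjusted p = 0.00154) with 21.98 and 24.3 CPM in subgroup 1, 49.00 and 44.1 CPM in subgroup 2 and 2.71 to 19.1 CPM (median 11.3) in neurofibroma. Fos was lost with subgroup 1 alone (adjusted p = 0.108). Jund rose by 3.10 and lost the call with the trend removed (0.65, adjusted p = 0.0555). Ier2, an early response nuclear protein, had 20.7 and 14.1 CPM in subgroup 1, 35.5 and 28.8 CPM in subgroup 2 and 1.28 to 5.58 CPM (median 2.61) in neurofibroma and rose by 3.13, or 1.44 with the trend removed. Socs3, a feedback inhibitor of cytokine signaling, rose by 3.03 (1.59 with the trend removed) and Nr4a1, an orphan nuclear receptor, by 1.74 (0.73 with the trend removed). Egr1 did not move with them (-0.23, adjusted p = 0.696), nor did Myc (0.41, adjusted p = 0.192). In the heat shock and unfolded protein list 8 of 20 members rose and 3 fell. Of the 29 promoters matched for 23 AP-1 list genes, 3 held TGACGTCA (10.3% against 1.8% of all promoters), 5 the CArG box bound by serum response factor (17.2% against 1.6%, with 4 of these at Egr2 starts) and 0 TGANTCA (against 7.8%). TGACGTCA stood at Btg2 and Dusp1, which were not called, and at a start of Maff, which rose. The CArG box stood at Egr2 and Zfp36, neither of which was called. Promoters of Junb, Fos, Jun, Socs3 and Nr4a1, which rose, held none of these motifs.

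Growth factor receptors rose in 5 (19.2%, against 30.6% over all genes) and fell in 8 (30.8%, near the 29.5% over all genes) of 26 members. Pdgfrb, a receptor of pericytes and fibroblasts, rose by 1.16 (0.68 with the trend removed), and Ddr1, a collagen receptor, had 95.5 and 128 CPM in subgroup 1, 104 and 104 CPM in subgroup 2 and 17.9 to 38.8 CPM (median 23.4) in neurofibroma and rose by 2.10 (SE 0.16, adjusted p = 1.46e-08), or 0.83 with the trend removed. Erbb4, a neuregulin receptor, had 0.343 and 0.462 CPM in subgroup 1, 0 and 0.0385 CPM in subgroup 2 and 1.23 to 11.9 CPM (median 6.12) in neurofibroma and fell by 4.92 (SE 0.79, adjusted p = 4.13e-05). Erbb3, the neuregulin receptor of Schwann cells, divided the paraspinal tumors with 202 and 313 CPM in subgroup 1, 21.03 and 17.6 CPM in subgroup 2 and 40.2 to 178 CPM (median 127) in neurofibroma. Subgroup 1 lay above and subgroup 2 below the neurofibroma range, so the pooled log2 fold change of 0.30 (adjusted p = 0.666) describes neither. Egfr and Pdgfra did not pass (adjusted p = 0.165 and 0.136). Of 25 ligands 4 rose and 5 fell. Mdk, a heparin-binding growth factor, had 46.5 and 29.9 CPM in subgroup 1, 167 and 132 CPM in subgroup 2 and 3.62 to 16.5 CPM (median 7.86) in neurofibroma and rose by 3.42 (SE 0.41, adjusted p = 1.82e-06), or 2.21 with the trend removed. Pdgfb rose by 2.21, a call lost with the trend removed (0.84, adjusted p = 0.0806). Nrg1, the axonal ligand of ERBB receptors, fell by 2.15 and Kitl, the mast cell growth factor, fell by 1.31. Both were lost with the trend removed (adjusted p = 0.127 and 0.518).

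Among secreted regulators of development Tgfb1 rose, and WNT and hedgehog genes gave fewer calls than genes at large. Tgfb1, a cytokine that drives matrix production, had 42.5 and 25.5 CPM in subgroup 1, 127 and 65.3 CPM in subgroup 2 and 1.72 to 18.1 CPM (median 7.498) in neurofibroma. It rose by 2.85 (SE 0.44, adjusted p = 2.97e-05) and by 2.64 with the trend removed. Id3, a target of BMP signaling, rose by 1.83, or 0.84 with the trend removed. In that list 10 of 25 members rose and 5 fell. In the WNT and hedgehog list 4 of 25 rose and 2 fell, and the ligand Wnt6 rose by 2.41, or 0.75 with the trend removed, while Znrf3, which clears WNT receptors, fell by 2.26. Gli1, a target of hedgehog signaling, had 218 and 99.7 CPM in subgroup 1, 106 and 109 CPM in subgroup 2 and 5.33 to 80.2 CPM (median 36.9) in neurofibroma and rose by 1.72, a call lost with the trend removed (adjusted p = 0.286) and with all 20 libraries in 1 fit. Ptch1, the hedgehog receptor, had 225 and 122 CPM in subgroup 1, 5.81 and 7.31 CPM in subgroup 2 and 78.03 to 387 CPM (median 284) in neurofibroma, so both subgroup 2 libraries lay below all others. It did not pass (-1.54, adjusted p = 0.0706).

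Schwann cell transcripts were present in every library of both stages. Sox10, the lineage-defining transcription factor, had 313 and 467 CPM in subgroup 1, 434 and 449.6 CPM in subgroup 2 and 64.3 to 250.1 CPM (median 168) in neurofibroma. It rose by 1.32 (SE 0.22, adjusted p = 7.89e-05), but turned to -0.40 (adjusted p = 0.216) with the trend removed and lost the call with all 20 libraries in 1 fit. S100b, a calcium-binding marker of the lineage, missed the threshold (0.46, adjusted p = 0.192) but passed with the trend removed (0.77). Of the 20 lineage genes 5 rose and 4 fell, and 3 were stable. Cadm4, an adhesion protein that joins Schwann cells to axons, had 464 and 983 CPM in subgroup 1, 1079 and 929 CPM in subgroup 2 and 23.03 to 119 CPM (median 93.5) in neurofibroma. It rose by 3.39 (SE 0.30, adjusted p = 6.07e-08), or 1.81 with the trend removed, with no overlap. Egfl8 rose by 2.53, or 1.10 with the trend removed, and Sox2, a factor of immature Schwann cells, by 1.61, which was lost with all 20 libraries in 1 fit. Cdh19 fell by 1.24, a call lost with subgroup 1 alone, against neurofibroma run 2 alone, with all 20 libraries in 1 fit, without either subgroup 2 library, and without neurofibroma library 4 or 8. With the trend removed it was 0.05.

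Myelin genes rose in 7 (30.4%, as over all genes) and fell in 1 of 23 members (median 0.46), and in 4 and 1 with the trend removed. Mag, an adhesion protein at the myelin and axon border, had 58.04 and 135 CPM in subgroup 1, 89.3 and 93.1 CPM in subgroup 2 and 5.91 to 44.5 CPM (median 16.4) in neurofibroma and rose by 2.34 (1.32 with the trend removed). Mbp and Pmp22, major myelin proteins, did not pass (log2 fold changes 0.39 and -0.81, adjusted p = 0.469 and 0.118). The repair Schwann cell list had 6 of 18 members higher (33.3%, near the 30.6% over all genes) and 4 lower (22.2%). Its member Gfap had 51.8 and 83.1 CPM in subgroup 1, 223 and 192 CPM in subgroup 2 and 2.201 to 52.7 CPM (median 20.005) in neurofibroma. Gfap rose by 2.80, a call lost with subgroup 1 alone (adjusted p = 0.0633). Factors of neural crest and mesenchyme were higher in 6 (27.3%) and lower in 7 (31.8%) of 22 cases, near the shares over all genes. Msx1 rose by 5.25 from levels of 1.33 and 1.34 CPM in subgroup 1, 4.42 and 3.96 CPM in subgroup 2 and 0 to 0.228 CPM (median 0.0291) in neurofibroma, and Snai1, an inducer of mesenchymal change, had 12.3 and 7.58 CPM in subgroup 1, 53.6 and 13.1 CPM in subgroup 2 and 0.0903 to 6.805 CPM (median 2.26) in neurofibroma and rose by 3.02 (1.41 with the trend removed). Twist1 rose by 2.57 and lost the call with the trend removed (adjusted p = 0.0691).

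Sensory neuron transcripts varied more among neurofibromas than between the stages. The 30 genes summed to 149 to 21275 CPM in neurofibroma (median 6556), lowest in library 4 and highest in library 11, and to 7191 to 10816 CPM in paraspinal libraries. Of them 5 rose and 1 fell, and 2 and 0 with the trend removed. Scn10a, the nociceptor sodium channel, had 194 and 526 CPM in subgroup 1, 147 and 118 CPM in subgroup 2 and 0.778 to 1277 CPM (median 199.7) in neurofibroma and did not pass (adjusted p = 0.652), and Rbfox3, a neuronal splicing factor, was at -0.04 (adjusted p = 0.965). Uchl1, an abundant neuronal deubiquitinase, was the single stable increase (2.42, SE 0.49, or 1.38 with the trend removed). Snap25, a synaptic vesicle fusion protein, fell by 2.53 (-1.32 with the trend removed), lost by limma-voom, with subgroup 1 alone, against neurofibroma run 1 alone, without either subgroup 2 library and with the trend removed. Of 10 satellite glia genes 2 rose and 2 fell, with a median of -0.31. One that rose, Apoe, made by satellite glia and macrophages, had 2855 and 2861 CPM in subgroup 1, 3829.8 and 4555 CPM in subgroup 2 and 347 to 1089 CPM (median 635) in neurofibroma and rose by 2.46, or 0.96 with the trend removed. Perineurial genes rose in 0 and fell in 3 of 20 members. Slc2a1, the glucose transporter of perineurium, had -0.43 (adjusted p = 0.211), or -1.05 with the trend removed, which passed, and the tight junction scaffold Tjp1 fell by 1.86.

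**Figure D3:**
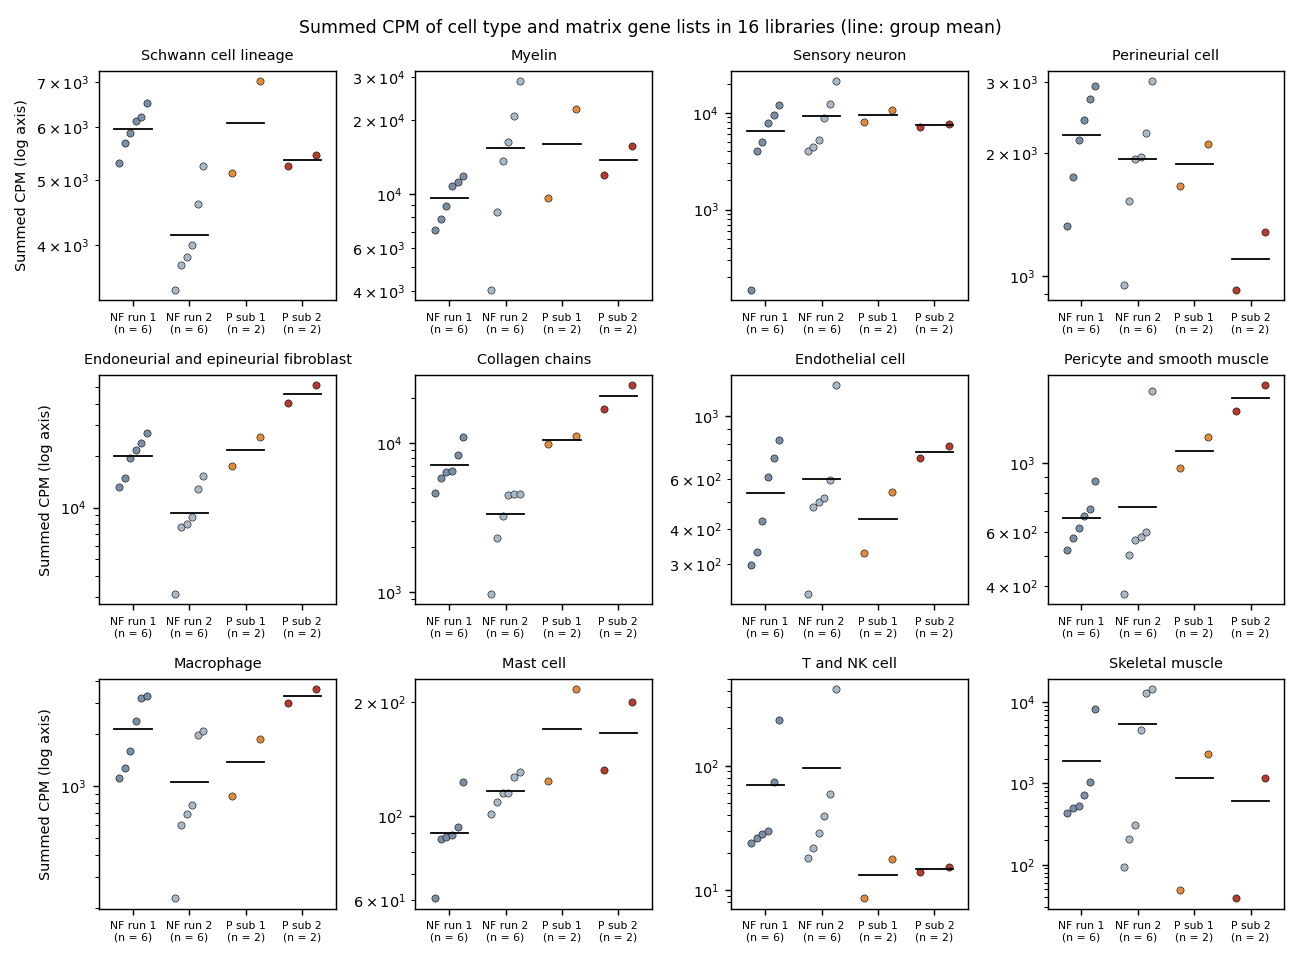
Summed CPM on a log axis of the genes in 12 lists, each point 1 library and each line a group mean, for neurofibroma (NF) runs 1 and 2 and paraspinal (P) subgroups 1 and 2; points within a group are sorted by value. The collagen sum was highest in subgroup 2, the T and NK cell sum was at most 17.6 CPM in paraspinal libraries, and the sensory neuron sum ran from 149 to 21275 CPM among neurofibromas.

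Collagen chains rose in 22 of 39 tested members and fell in 3, with 13 stable increases (median 1.28, or 0.92 with the trend removed). The sum over collagens was 970 to 11024 CPM in neurofibroma (median 4608), highest in library 4, and 9859 to 24522 CPM in paraspinal libraries. Col1a1, the main fibrillar chain, had 1528 and 957 CPM in subgroup 1, 3871 and 2022 CPM in subgroup 2 and 57.98 to 901 CPM (median 444) in neurofibroma. It rose by 2.20 (SE 0.45, adjusted p = 0.000401), or 1.29 with the trend removed, without overlap. Among basement membrane and beaded filament chains, Col4a1 rose by 1.97 (adjusted p = 5.92e-05) and Col6a1 by 2.32, or 1.43 with the trend removed (adjusted p = 9.07e-05 and 0.0108). Col9a2, a chain better known from cartilage, had 69.2 and 59.2 CPM in subgroup 1, 75.3 and 93.1 CPM in subgroup 2 and 1.81 to 6.101 CPM (median 4.23) in neurofibroma and rose by 4.22 (SE 0.24, adjusted p = 3.4e-10), or 2.41 with the trend removed. Col16a1 had 626 and 697 CPM in subgroup 1, 997 and 937 CPM in subgroup 2 and 14.00 to 159 CPM (median 99.6) in neurofibroma and rose by 3.17 (1.93 with the trend removed). Col10a1, the collagen of growth plate cartilage, had 0.172 and 0.277 CPM in subgroup 1, 0.514 and 0.192 CPM in subgroup 2 and 3.07 to 8.98 CPM (median 6.23) in neurofibroma and fell by 4.37 (SE 0.41, adjusted p = 9.86e-08). The other cartilage and bone genes gave 2 increases and 2 decreases among 9 tested, Col10a1 included.

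Fibroblast genes rose in 11 (40.7%, against 30.6% over all genes) and fell in 1 (3.7%) of 27 members (median 0.50), with 3 stable increases. Gsn, an actin-severing protein, had 5526 and 3164 CPM in subgroup 1, 1887 and 3291 CPM in subgroup 2 and 139 to 944 CPM (median 534) in neurofibroma and rose by 2.60 (1.57 with the trend removed), and Cd34, a marker of endoneurial fibroblasts and vessels, rose by 1.68 (2.73 with the trend removed). Dcn, the small proteoglycan of connective tissue, had 3669 and 1759.9 CPM in subgroup 1, 2737 and 3096 CPM in subgroup 2 and 777 to 6078 CPM (median 3480.5) in neurofibroma. It did not pass (-0.29, adjusted p = 0.55) and became 1.04 (adjusted p = 0.0261) with the trend removed. Matrix proteases and inhibitors rose in 9 (30.0%, near the 30.6% over all genes) and fell in 4 (13.3%) of 30. Mmp14, a membrane protease, rose by 2.26, lost with subgroup 1 alone (adjusted p = 0.0742), and Timp3 fell by 1.20, lost with the trend removed (adjusted p = 0.108). Of 23 endothelial genes 6 rose (26.1%) and 4 fell (17.4%), both below the shares over all genes, and 1 and 1 with the trend removed. Pecam1, a junction protein of all endothelium, did not pass (0.14, adjusted p = 0.821), while Cldn5 and Plvap rose by 2.42 and 3.16 and lost the call with the trend removed (adjusted p = 0.0532 and 0.115). Pericyte and smooth muscle genes rose in 4 (28.6%) and fell in 2 of 14 cases, and their median went from 0.55 to -0.02 with the trend removed. Tagln, a smooth muscle protein, had 43.8 and 67.3 CPM in subgroup 1, 246 and 359 CPM in subgroup 2 and 5.51 to 90.6 CPM (median 12.8) in neurofibroma and rose by 3.07, lost with subgroup 1 alone (adjusted p = 0.104).

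Immune lists differed in direction. T and NK cell transcripts were low in all paraspinal libraries. In the T and NK cell list 0 of 17 members rose and 7 fell (median -1.98). Its sum was 8.60 to 17.6 CPM in paraspinal libraries and 18.2 to 412 CPM (median 29.2) in neurofibroma, highest in library 7. Cd8a had 0.944 and 0.323 CPM in subgroup 1, 0.103 and 0.5 CPM in subgroup 2 and 1.69 to 106 CPM (median 5.54) in neurofibroma, and its log2 fold change of -5.16 (SE 1.42, adjusted p = 0.00473) was lost by limma-voom and with subgroup 1 alone (adjusted p = 0.0729). Cd3e, a subunit of the T cell receptor complex, had 0.944 and 0.277 CPM in subgroup 1, 0.257 and 0.5 CPM in subgroup 2 and 0.181 to 51.1 CPM (median 1.65) in neurofibroma. It fell (log2 fold change -4.00, adjusted p = 0.024) and lost the call by limma-voom, with either subgroup alone, without either subgroup 2 library, without subgroup 1 library 2 and with the trend removed. Foxp3, the factor of regulatory T cells, had 0.258 and 0.277 CPM in subgroup 1, 0.103 and 0.115 CPM in subgroup 2 and 0.271 to 3.77 CPM (median 1.05) in neurofibroma and fell by 2.89 (SE 0.64, adjusted p = 0.000862), 1 of 2 stable decreases. The B and plasma cell list summed to 22.8 to 372 CPM in neurofibroma and to 46.03 to 309.5 CPM in paraspinal libraries. Of 9 tested members 1 rose, Sdc1, which was a stable increase, and 3 fell. How much of the sum came from Sdc1 was not tested. Cd22 fell by 2.71. Ms4a1 had 0.0429 and 0 CPM in subgroup 1, 0 and 0 CPM in subgroup 2 and 0.0686 to 18.99 CPM (median 0.224) in neurofibroma. Its log2 fold change of -7.17 (SE 2.33) was lost by limma-voom and with either subgroup alone.

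Macrophage genes rose in 6 (25%) and fell in 3 of 24 members (median 0.92). C1qa, a complement component of tissue macrophages, had 201 and 72.05 CPM in subgroup 1, 472 and 425 CPM in subgroup 2 and 2.98 to 59.2 CPM (median 21.3) in neurofibroma and rose by 3.66 (SE 0.63, adjusted p = 8.84e-05), or 2.18 with the trend removed, with no overlap. Trem2, a lipid receptor, rose by 2.97 and lost the call with subgroup 1 alone (adjusted p = 0.161). The general markers Csf1r and Cd68 did not pass (log2 fold changes 0.82 and 0.94, adjusted p = 0.224 and 0.153). Mast cell genes rose in 5 and fell in 1 of 12. Tpsb2, a mast cell tryptase, had 34.04 and 23.8 CPM in subgroup 1, 54.8 and 39.1 CPM in subgroup 2 and 0.542 to 12.3 CPM (median 6.53) in neurofibroma and rose by 2.57 (SE 0.43, adjusted p = 7.03e-05), or 1.40 with the trend removed, and the chymase Cma1 rose by 1.76, lost with subgroup 1 alone (adjusted p = 0.0837). Cxcr2, the chemokine receptor of neutrophils, had 0.386 and 1.802 CPM in subgroup 1, 4.52 and 0.385 CPM in subgroup 2 and 25.9 to 36.3 CPM (median 32.2) in neurofibroma and fell by 4.18. The neutrophil list did not follow it: of 12 genes 2 rose and 1 fell (median 0.55), and 4 rose and 1 fell with the trend removed. Its sum overlapped between the stages, with 62.9 to 437.8 CPM in neurofibroma and 66.0 to 406.3 CPM in paraspinal libraries. Dendritic cell and MHC class II genes rose in 3 (17.6%) and fell in 2 (11.8%) of 17 cases. Interferon genes rose in 5 (18.5%) and fell in 4 (14.8%) of 27, and both lists lay below the shares over all genes. Bst2, an interferon-induced protein which tethers virions, rose by 2.65.

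Markers of tissues beside the nerve varied among neurofibromas. Skeletal muscle genes summed to 92.6 to 14367 CPM in neurofibroma, highest in library 7, and to 38.8 to 2307 CPM in paraspinal libraries, and 0 of 17 rose and 1 fell. That gene, Ttn, the giant spring of the sarcomere, fell by 5.91 (SE 1.97, adjusted p = 0.0155), lost with subgroup 1 alone and with the trend removed (-2.64). Adipocyte genes summed to 27.3 to 3829 CPM in neurofibroma and 15.8 to 343 CPM in paraspinal libraries. The median of their 11 members was -2.91, with 1 call, Plin4 (-3.13, adjusted p = 0.0382), which was lost by limma-voom, against neurofibroma run 1 alone, without neurofibroma library 8, with either subgroup alone, without either subgroup 2 library and without subgroup 1 library 2. Adipoq, the adipocyte hormone, had -2.97 (adjusted p = 0.147). Among keratinocyte and epithelial genes 8 of 16 passed the filter on low counts, of which 1 rose and 2 fell. Red blood cell genes passed the filter in 3 of 9 cases. The part of these tissues in the stage differences was not tested.

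Genes of protein synthesis and respiration rose more often than genes at large. Of 47 cytosolic ribosomal proteins 44 rose, 1 fell and 31 were stable increases (median 1.56, or 1.25 with the trend removed), and the sum was 5429 to 9978 CPM in neurofibroma and 11077 to 28046 CPM in paraspinal libraries. Rplp0 had 632 and 550.0 CPM in subgroup 1, 1453 and 1371 CPM in subgroup 2 and 87.97 to 213 CPM (median 149.7) in neurofibroma and rose by 2.72 (SE 0.24, adjusted p = 5.45e-08), and Rps19 had 222 and 182 CPM in subgroup 1, 564 and 530.2 CPM in subgroup 2 and 37.2 to 76.7 CPM (median 56.1) in neurofibroma and rose by 2.71. The exception was Rpl15, which fell by 0.74 (0.02 with the trend removed) and was lost against neurofibroma run 2 alone and with the trend removed. Of 41 respiratory chain subunits 29 rose, 1 fell and 10 were stable increases (median 1.01). Their sum overlapped between the stages, with 4664 and 5181 CPM in subgroup 1, 8506 and 8093 CPM in subgroup 2 and 2434 to 7631 CPM (median 5027) in neurofibroma. Uqcrb, a subunit of complex III, had 42.7 and 44.3 CPM in subgroup 1, 159 and 153 CPM in subgroup 2 and 7.78 to 23.2 CPM (median 13.3) in neurofibroma and rose by 2.81 (SE 0.31, adjusted p = 6.53e-07). Cox4i1, of complex IV, rose by 1.44, lost with the trend removed (adjusted p = 0.616), and Atp5b, of the ATP synthase, fell by 1.21. Many genes of both lists have processed copies in the genome, so their counts are uncertain where the counting could split reads between copies. Ribosome assembly factors rose in 9 and fell in 3 of 22 members, among them Ppan (2.85) and Bop1 (1.92, or 0.66 with the trend removed). Glycolysis and hypoxia genes rose in 8 (32.0%) and fell in 8 (32.0%) of 25, near the 30.6% and 29.5% over all genes. Ero1l and Hif1a were among those that fell. Pkm, the last enzyme of glycolysis, rose by 1.67, or 0.72 with the trend removed, and Ddit4, a stress-induced inhibitor of mTOR, had 124 and 86.6 CPM in subgroup 1, 93.3 and 232 CPM in subgroup 2 and 4.79 to 56.7 CPM (median 8.22) in neurofibroma and rose by 3.22 (1.95 with the trend removed). In sterol and fatty acid synthesis 7 of 28 rose and 3 fell, with Idi1, an isoprenoid enzyme, down by a log2 fold change of -2.90.

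**Figure D4:**
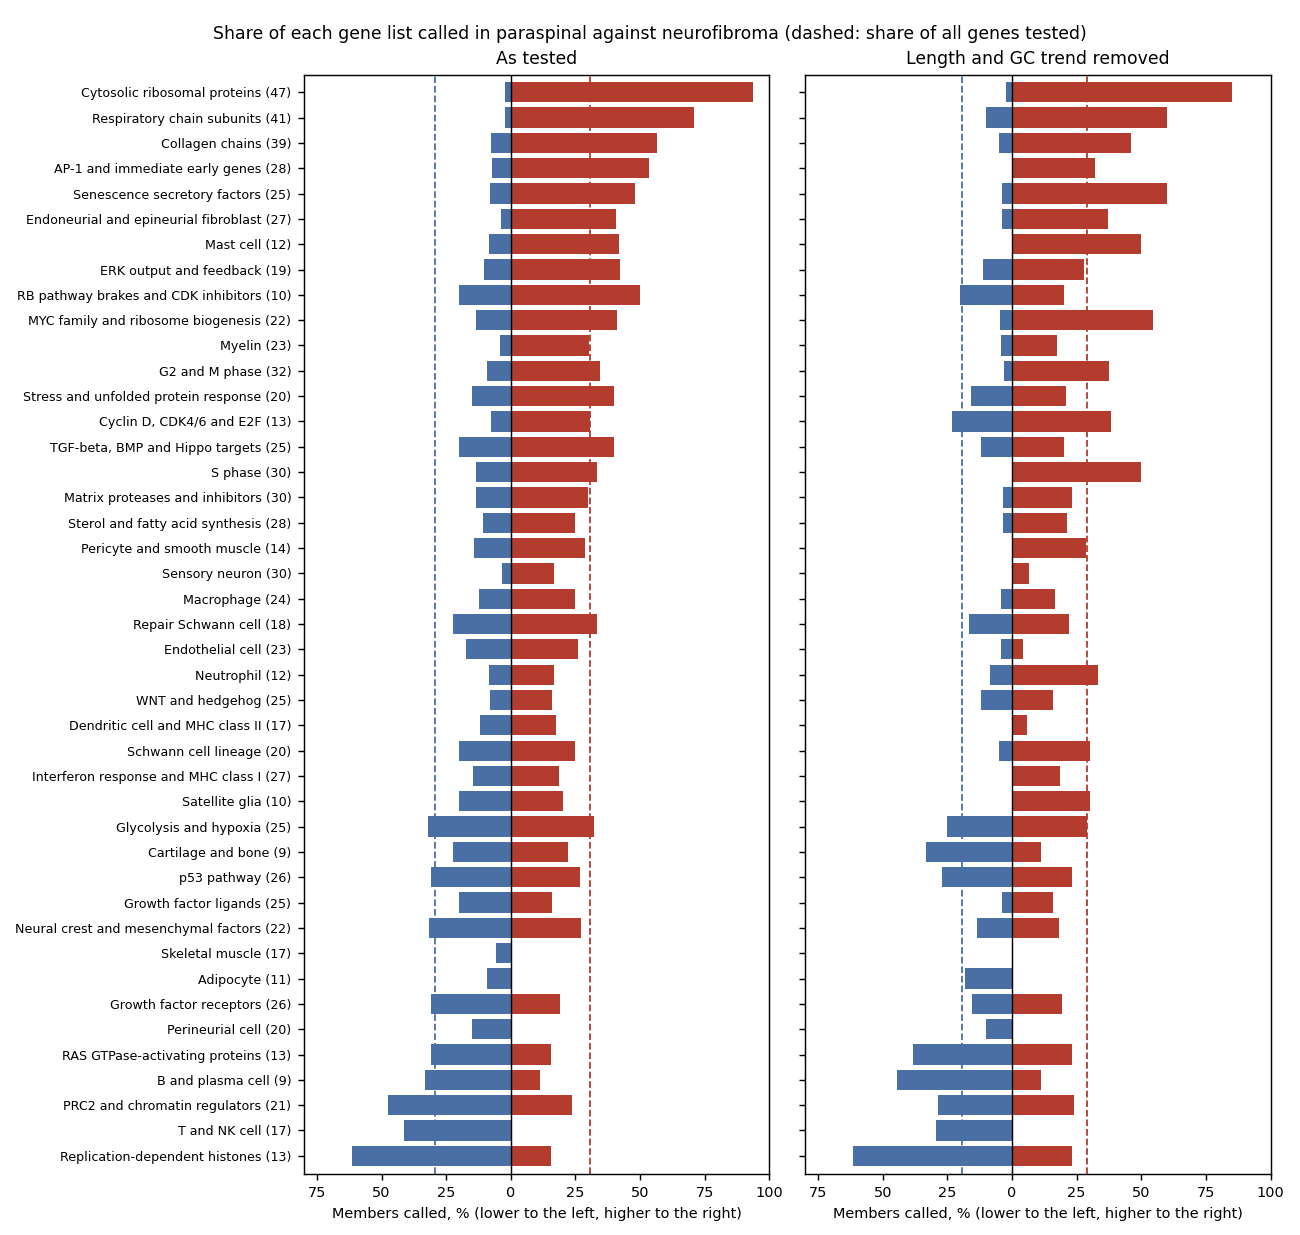
Percentage of tested members (number in brackets) called lower, to the left, or higher, to the right, for each list with at least 9 tested members, as tested (left panel) and with the length and GC trend removed (right panel). Dashed lines mark the percentages over all genes tested, 29.5 and 30.6 on the left and 19.2 and 28.9 on the right; ribosomal proteins, respiratory chain subunits and collagens exceed the line for increases in both panels.

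Chromatin regulators fell in 10 and rose in 5 of 21 members, and in 6 and 5 with the trend removed. The core subunits of Polycomb complex PRC2, whose loss is common in human malignant nerve sheath tumors, were detected in every library. Suz12 had 29.4 and 35.5 CPM in subgroup 1, 17.8 and 17.7 CPM in subgroup 2 and 30.7 to 50.3 CPM (median 44.1) in neurofibroma and fell by 0.80, lost with subgroup 1 alone (adjusted p = 0.0769) and with the trend removed (0.11). Eed had 14.6 and 15.3 CPM in subgroup 1, 24.2 and 26.4 CPM in subgroup 2 and 13.2 to 26.4 CPM (median 21.7) in neurofibroma and did not pass (-0.12, adjusted p = 0.586), nor did the catalytic subunit Ezh2 (-0.65, adjusted p = 0.0687), which passed by DESeq2 and limma-voom. Phf1, an accessory subunit, had 103 and 84.9 CPM in subgroup 1, 69.00 and 95.9 CPM in subgroup 2 and 11.05 to 27.5 CPM (median 16.2) in neurofibroma and rose by 2.30 (SE 0.19, adjusted p = 3.2e-08), or 1.07 with the trend removed. The demethylase Kdm6a fell by 2.12, or -1.07 with the trend removed. Smarcb1, a SWI/SNF subunit, rose by 1.34. Atrx, a chromatin remodeler, fell by 2.52 and was lost with the trend removed (adjusted p = 0.0743).

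By size of change, the increases among genes called against both neurofibroma runs, without overlap and averaging a log2 CPM of 3 or more, were led by Cxcl14, a chemokine, with 71.4 and 40.9 CPM in subgroup 1, 950.3 and 236 CPM in subgroup 2 and 0.903 to 20.5 CPM (median 11.9) in neurofibroma and a log2 fold change of 4.93 (SE 0.72). Others were Arf5, a vesicle GTPase (4.64, or 3.07 with the trend removed), Stub1, a ubiquitin ligase (4.38, or 2.75 with the trend removed), and Ppib, a collagen-folding prolyl isomerase, which had 186 and 164 CPM in subgroup 1, 654 and 469 CPM in subgroup 2 and 13.6 to 25.8 CPM (median 17.4) in neurofibroma and rose by 4.33 (SE 0.26, adjusted p = 9.02e-10). The GTPase Rhoc rose by 4.05 (2.48 with the trend removed), and Lgals1, a galectin of Schwann cells and stroma, had 371 and 330.1 CPM in subgroup 1, 1627 and 1214 CPM in subgroup 2 and 33.6 to 86.7 CPM (median 63.6) in neurofibroma and rose by 3.81, in both cases highest in subgroup 2. Tnfrsf12a, the receptor of TWEAK, rose by 3.81 (2.32 with the trend removed) and the splicing factor Srsf4 by 3.68.

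The decreases were led by transcripts of which several were also low in GEM-PNST libraries of the paraspinal run. Olfr613, an olfactory receptor gene, had 238 to 335 CPM (median 303) in neurofibroma and 0 counts in all paraspinal libraries, which is at least 8715-fold lower when 3 counts are assumed for the whole group, and Vmn1r58, a vomeronasal receptor gene with 169.8 to 231 CPM (median 197) in neurofibroma, was at least 5997-fold lower. Floors cover counting error only. All GEM-PNST libraries also had 0 counts of both genes. Malat1, an abundant nuclear RNA, took 25200 to 35779 CPM of the library total in neurofibroma, 217 to 874 CPM in paraspinal and 163 to 904 CPM in GEM-PNST libraries. Rn45s, the ribosomal RNA precursor, took 34767 to 188531 CPM of the library total in neurofibroma, 4411 to 18408 CPM in paraspinal and 3706 to 307423 CPM in GEM-PNST libraries. Replication-dependent histones, whose mRNAs lack poly(A) tails, fell in 8 and rose in 2 of 13 tested members: Hist1h4d had 0.0859 and 0 CPM in subgroup 1, 0.154 and 0.423 CPM in subgroup 2 and 9.96 to 24.3 CPM (median 16.3) in neurofibroma, while Hist1h1c rose by 2.37. In GEM-PNST libraries of the same run Hist1h4d took 0.51 to 16.03 CPM of the library total (median 2.26). Only the highest of them reached the neurofibroma range of 9.44 to 22.66 CPM. Rn45s overlapped neurofibroma only through GEM-PNST library 4, where it took 30.742% of counts. GEM-PNST libraries 1 to 3 had 0.753%, 0.662% and 0.371%. Stage and sequencing run cannot be told apart for the transcripts named here.

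**Figure D5:**
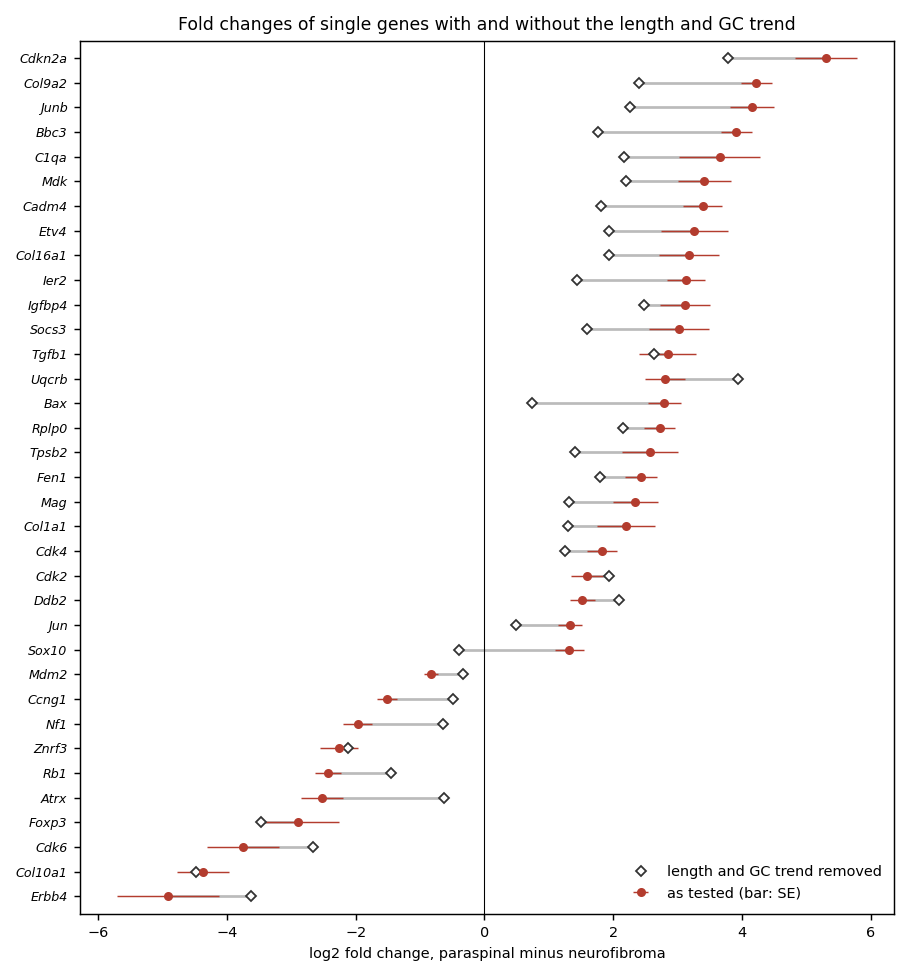
Log2 fold change, paraspinal minus neurofibroma, of single genes as tested (filled circles, bars give the SE) and with the length and GC trend removed (open diamonds), sorted by the tested value. Cdkn2a, Junb, Cadm4 and Col9a2 stay above and Cdk6, Erbb4 and Col10a1 below 0 under both, while Sox10 changes sign.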

How the data were processed

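The authors deposited 1 table of raw read counts per gene (24062 genes, 20 libraries), made with mm10, TopHat, HISAT2 and featureCounts per the submitters' processing notes, whose versions, roles and use by library are not given in the sources used here. Whether counting used strand is also not stated, so overlapping genes and near-identical copies are uncertain. From the counts, CPM were computed with TMM factors over the 16 libraries. edgeR 4.0.16 (R 4.3.3) tested 16270 genes that passed filterByExpr with its quasi-likelihood test, with Benjamini-Hochberg adjusted p of 0.05 as threshold. Log2 CPM used a prior count of 2. The trend-removed fit added a per-gene offset for exon length and GC content (GENCODE M21). limma 3.58.1 (voom) and DESeq2 1.42.0 were alternatives. The fit was tested on simulated data with 200 changed genes. The members and lists were chosen with earlier results of these data known, and so were the named genes: the targeted genes, up to 12 each way by fold change, the first 6 members of each list and its lowest adjusted p, of which a selection is printed. Gene coordinates are GRCm38 (GENCODE M21). Each count has only counting precision behind it within a library, and replicate spread between libraries was larger in all 72 pairs compared.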

Additional observations from a re-analysis of the deposited data

Results flagged for a closer look

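In 6 of 200 sets of library values checked, 1 of the 4 paraspinal libraries stood far from the other three, and chance alone marks about 1 in 20 such groups. Subgroup 1 library 1 was high for Gli1 (218 CPM), a hedgehog target. Its Ms4a1 value (0.0429 CPM) is a single read against 0 in the other three, too few to tell the libraries apart at this depth. Subgroup 1 library 2 was low for the macrophage receptor Csf1r (79.0 CPM). Subgroup 2 library 1 stood apart for Snai1 (53.6 CPM), a factor of mesenchymal change, for Atp5b (989 CPM), a subunit of the ATP synthase, and for Pkm (1067 CPM), a glycolytic enzyme.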

How the results depend on the processing

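Between paraspinal tumors and neurofibromas 9777 genes were called. A test against a 2-fold minimum called 4288 (2045 higher, 2243 lower) and a fit with the replicate number as block 3021 (1419 higher, 1602 lower). With the length and GC trend removed 3088 were lower. Leaving out any 1 paraspinal library or neurofibroma library 4, 8 or 9 gave 8771 to 9897 (4587 to 5130 higher, 4184 to 4865 lower). The other neurofibroma libraries were not left out in turn. Same-numbered libraries of different stages deviated with correlations of -0.292 to 0.219. Only numbers 1 and 2 occur in both stages, and same-numbered paraspinal libraries of the 2 subgroups correlated at -0.634 and -0.64. These values therefore cannot decide whether the numbers pair the samples. In the block fit neurofibroma libraries with other numbers do not bear on the stage effect, and 63 of 124 called single genes lost their call.

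Against both neurofibroma runs 7552 genes were called. The 2-fold minimum left 3026 (1438 higher, 1588 lower) and trend removal 2088 lower. Leaving out 1 of the same libraries as above gave 6525 to 7787 (3361 to 4098 higher, 3164 to 3714 lower). Between the neurofibroma runs edgeR called 0, DESeq2 503 (253 higher, 250 lower) and limma-voom 510 (153 higher, 357 lower). Leaving out neurofibroma library 4, 8 or 9, the only ones tried, gave 0 to 196 by edgeR (0 to 72 higher, 0 to 124 lower). That count was 9 without neurofibroma library 8 and 196 without library 9.

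With the trend removed, the log2 fold change turned to -0.50 for Cdkn2c, -0.40 for Sox10, 0.049 for Cdh19, 0.022 for Rpl15, 0.11 for Suz12, -1.13 for E2f1 and 1.04 for Dcn. With subgroup 1 alone it turned to -0.044 for Timp1, -0.12 for Ccl8 and -0.58 for E2f1, and with subgroup 2 alone to -2.60 for Erbb3. The cause was not tested. Of 124 called single genes, 52 kept their call and direction in all 22 settings compared. The 2-fold minimum ended 24 calls of single genes. Depth is lower in neurofibroma, which limits what can be said of genes with few counts there.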

Other observations

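Spry3, a member of the Sprouty family of receptor tyrosine kinase inhibitors, had 0 counts in all 12 neurofibroma libraries and 3.73, 6.05, 3.91 and 2.46 CPM in the paraspinal libraries. Xist, the RNA that coats the inactive X chromosome, had over 1000 counts in 4 of 12 neurofibroma and 1 of 4 paraspinal libraries. Neurofibroma library 5 had 35 Xist counts and 0 counts of the Y-linked gene Ddx3y, whereas the other libraries with few Xist counts had Ddx3y counts.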
